A study of Mus musculus with 55 samples.

Results

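The 10 apolipoprotein genes described here, Apoa1, Apoa2, Apoa4, Apoa5, Apob, Apoc1, Apoc2, Apoc3, Apoc4 and Apoe, were taken by gene symbol from the 37620 genes quantified in mouse liver. The rule used symbols and no measured value, although it was set with earlier results of these data known. All 10 were expressed in every mouse, and all 10 passed the filter on low counts. Poly(A) RNA was sequenced from the livers of 55 male mice of 29 Collaborative Cross lines, which are recombinant inbred lines bred from a shared panel of founder strains. The mice were naive, received no treatment, were kept on chow and tap water without restriction, were 8 to 11.9 weeks old and weighed 12.8 to 38 g. A group was a line and is named by its strain label: 8 lines had 1 mouse, 16 lines had 2 mice and 5 lines had 3 mice, so that 21 lines with 47 mice allowed a comparison of mice within and between lines. Where no line mate was sequenced, the line mean was the value of 1 mouse.

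Apolipoproteins are the protein coats of lipoprotein particles, the carriers of cholesterol and triglyceride in blood, and the liver is their main source together with the intestine. Apob is the structural protein of very low and low density lipoproteins. Apoa1 and Apoa2 are the main proteins of high density lipoproteins, Apoe is the ligand by which remnants are taken up through receptors, Apoc2 activates lipoprotein lipase, Apoc3 inhibits the clearance of triglyceride, Apoa5 promotes it, Apoc1 inhibits lipid transfer and remnant uptake, and Apoa4 is a lipid-responsive protein of chylomicrons and high density lipoproteins. Of these genes, 8 lie in a pair of compact clusters of 4 genes each, and Apoa2 and Apob lie alone on other chromosomes.

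On the genome build of the files (mm9), the Apoa1 cluster held Apoa1 (ENSMUSG00000032083, chr9:46036663-46038549, plus strand), Apoc3 (ENSMUSG00000032081, chr9:46041016-46043719, minus strand), Apoa4 (ENSMUSG00000032080, chr9:46048779-46051542, plus strand) and Apoa5 (ENSMUSG00000032079, chr9:46076716-46080002, plus strand). The Apoe cluster lay on the minus strand and held Apoe (ENSMUSG00000002985, chr7:20281458-20284515), Apoc1 (ENSMUSG00000040564, chr7:20274833-20278007), Apoc4 (ENSMUSG00000074336, chr7:20263443-20266765) and Apoc2 (ENSMUSG00000002992, chr7:20256928-20266772). The annotated span of Apoc2 contains that of Apoc4. Apoa2 (ENSMUSG00000005681) lay at chr1:173155185-173156510 and Apob (ENSMUSG00000020609) at chr12:7984454-8023641, both on the plus strand.

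Short sequences from that build that go with the isoform results given further on are shown here, 5′ to 3′. The isoforms Apoa2-001, Apoa2-002 and Apoa2-003 differ at the start of the second exon, where 3 splice acceptors follow each other at chr1:173155403-173155432 on the plus strand. They also differ at their annotated ends, with starts at 173155213, 173155185 and 173155215 in that order. The acceptor of Apoa2-002 lies 3 bases and that of Apoa2-003 lies 15 bases downstream of the acceptor of Apoa2-001. Capitals mark the second exon of each isoform.
Apoa2-001: ctttctcaccagCAGCACTGTTCCTAGGCC
Apoa2-002: ctttctcaccagcagCACTGTTCCTAGGCC
Apoa2-003: ctttctcaccagcagcactgttcctagGCC
The acceptors of Apoa2-001 and Apoa2-002 stand in tandem.

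The isoform Apoc2-004 begins with the first exon of Apoc4 (chr7:20266654-20266765 in Apoc4-001, 112 bases of it shared) and joins it to exons of the Apoc2 locus, across an intron of 4420 bases. The junction sequences below give the last 15 bases of that first exon in lower case and the first 15 bases of the second exon in capitals, read on the minus strand. In Apoc4-001 the joined bases span chr7:20264077-20266668 and in Apoc2-004 chr7:20262219-20266668.
Apoc4-001: tggtcagctttgtagCATCCATGTCTACAG
Apoc2-004: tggtcagctttgtagGCCTGCCACCCCACC

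Promoter sequences were taken from RefSeq (GRCm38.p6, 250 bases before and 50 bases after a gene's start), which held 12 entries for 8 of the 10 genes. Apoc1 and Apoc3 are named only. Shown are Apoa4, the gene with the widest range among lines, and the neighbours Apoc4 and Apoc2, whose levels had r = -0.05 across lines. Capitals mark matches on either strand to any of 5 motifs, which do not contain one another. They are the TATA box TATAAA, the E-box CACGTG, the nuclear receptor element AGGTCA, the HNF1 element GTTAAT and the CCAAT box.
Apoa4 (chr9:46240594-46240893, plus strand): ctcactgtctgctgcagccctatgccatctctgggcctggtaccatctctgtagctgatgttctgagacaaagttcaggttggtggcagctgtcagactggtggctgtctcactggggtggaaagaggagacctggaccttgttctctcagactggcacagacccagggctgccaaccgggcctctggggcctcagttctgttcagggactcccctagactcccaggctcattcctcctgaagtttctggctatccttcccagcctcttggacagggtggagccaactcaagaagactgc
Apoc4 (chr7:19681411-19681710, minus strand): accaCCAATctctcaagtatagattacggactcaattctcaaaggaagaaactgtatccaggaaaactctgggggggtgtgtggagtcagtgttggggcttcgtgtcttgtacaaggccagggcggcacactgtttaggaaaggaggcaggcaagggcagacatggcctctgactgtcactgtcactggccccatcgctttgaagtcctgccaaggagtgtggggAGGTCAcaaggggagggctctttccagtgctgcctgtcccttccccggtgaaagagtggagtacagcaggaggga
Apoc2 (chr7:19677892-19678191, minus strand): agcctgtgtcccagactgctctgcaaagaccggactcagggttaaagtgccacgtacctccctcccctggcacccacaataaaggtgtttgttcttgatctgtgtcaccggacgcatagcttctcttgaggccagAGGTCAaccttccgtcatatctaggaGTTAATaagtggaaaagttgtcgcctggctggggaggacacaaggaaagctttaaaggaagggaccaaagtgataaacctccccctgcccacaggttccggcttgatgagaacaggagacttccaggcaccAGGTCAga
The Apoc2 window held AGGTCA at -115 and 43 and GTTAAT at -89 from the start. The Apoc4 window held AGGTCA at -25 and CCAAT at -246. None of these letters was found in the Apoa4 window. Of 32851 promoter windows of this length, 16.26% held AGGTCA, 7.099% held GTTAAT, 37.41% held CCAAT, 13.62% held TATAAA and 7.15% held CACGTG.

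Depth ranged from 20.5 M to 33.95 M expected counts per mouse (median 27.7 M). No pair of mice had identical gene values. Among the 47 mice with a line mate, the most similar mouse by Spearman correlation over expressed genes was a line mate for 41. The exceptions were the 5 mice labelled IL-1052 and IL-2750, each of which was nearest to a mouse of the other of these lines, and the IL-2146 mouse 2, which was nearest to a mouse of IL-1141. Results that rest on IL-1052 and IL-2750 are therefore given as those of libraries so labelled, and without them all 10 genes still differed among lines, 52 member-line pairs, 2 pairs within the clusters, 4 isoform ratios and 71 other lipoprotein genes were called. Pairs of these lines were then not tested, so the 52 are not out of the 210 pairs tested with all lines. Shares over all genes are not given for this setting. The hepatocyte markers were high throughout, with albumin (Alb) at 8656 to 50167 FPKM (fragments scaled by transcript length and by depth, a level that can be compared between genes). Of the 6 markers of the enterocyte, the other source of apolipoproteins, Lct, Sis and Reg3g had a median of 0 FPKM (highest 0.11, 0.43 and 2.07), Vil1 of 0.07 (highest 0.8) and Cdhr2 of 0.37 (highest 3.77). Fabp2, a fatty acid binding protein, was at 32 to 165 FPKM in every mouse and made up nearly all of the list's sum.

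The labels number the mice, and the numbers fall into 8 runs when a step over 10 starts a new run. Line mates lay in the same run except in 2 lines, so that line and run are largely confounded. The mice of IL-2146 and those of IL-1513 each made up a run of their own. A comparison of lines within runs, chosen after seeing the data, kept 16 line terms. It called 9 of the 10 genes (all but Apob, adjusted p of 0.375, edgeR), where 66.7% of all genes were called. What the runs stand for is not given in the labels, and differences between lines of different runs cannot be told apart from differences between runs.

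The apolipoprotein genes took a median of 5.70% of all liver transcripts, by TPM, from 3.62% to 8.53% among mice. By line, the share was lowest in IL-2011, with a mean of 4.25%, and highest in IL-2146, with a mean of 8.04%. Per length, Apoe and Apoa2 stood highest, with median levels of 11729 and 11718 FPKM over the 55 mice, and ranked 11 and 8 by mean level among the 11284 genes that reached 2 FPKM. Apoa1 (median 7269 FPKM) and Apoc1 (5463 FPKM) followed. Apoc3 had a median of 2465 FPKM, Apoc4 of 956 FPKM, Apob of 716 FPKM, Apoa5 of 346 FPKM, Apoc2 of 334 FPKM and Apoa4 of 163 FPKM.

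The first comparison asked whether the level of each gene differed among lines by more than line mates differed. With edgeR's quasi-likelihood F-test over the 21 lines with at least 2 mice and Benjamini-Hochberg adjustment over 15285 genes, all 10 apolipoprotein genes passed the threshold of 0.05, where 88.5% of all genes tested passed. The adjusted p (edgeR) was lowest for Apoa4 (1.21e-08), followed by Apoc2 (2.92e-06), Apoc1 (3.98e-06) and Apoc3 (1.36e-05), and highest for Apob (0.0386). The call for Apob was the least secure of them. It was lost without 32 of the 47 mice left out singly, with adjusted p (edgeR) from 0.000649 to 0.0852, and in limma on log2(FPKM + 1), with an adjusted p of 0.0658.

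Apart from Apoa4, the ranges were ordinary or narrow beside those of other expressed genes. Between its extreme lines, the mean level changed by a factor of 1.79 for Apoc4, 2.05 for Apoa2, 2.06 for Apoc3, 2.095 for Apob, 2.14 for Apoe, 2.28 for Apoc1, 2.40 for Apoa1, 2.54 for Apoc2, 2.86 for Apoa5 and 37.0 for Apoa4. The median ratio of the 10 genes was 2.21, beside 2.66 over 10368 expressed genes with no line at 0. Apoa4 alone of them stood near the top of that distribution, at percentile 94.9. The others stood between percentile 13.1 (Apoc4) and percentile 54.6 (Apoa5).

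**Figure D1:**
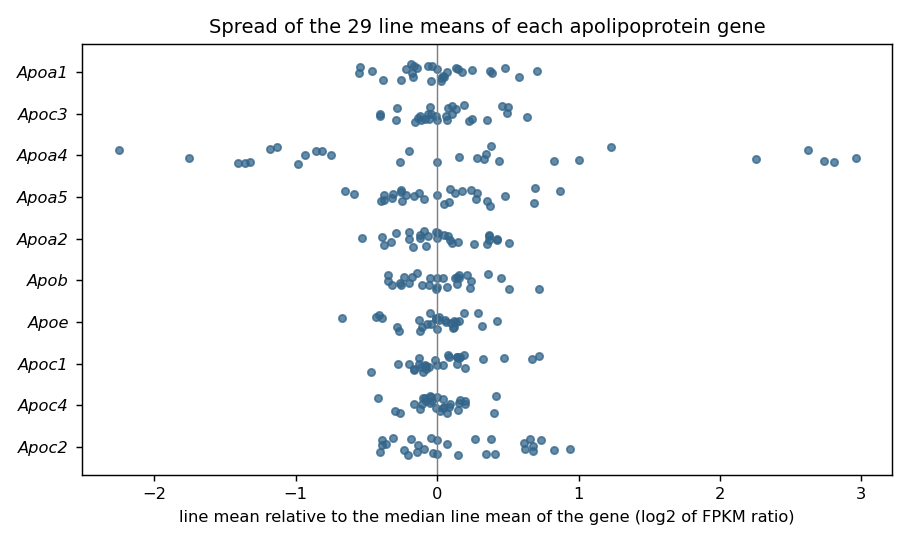
Line means of each of the 10 genes, drawn as the log2 ratio of the FPKM line mean to the median line mean of the gene; each point is 1 of 29 lines, shifted vertically at random so that points can be seen. Apoa4 spans a ratio of 37.0 between its extreme lines and the other 9 genes span 1.79 to 2.86.

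The intraclass correlation, the share of variance that lies between lines, was computed on rank-based normal scores of FPKM. Its median over the 10 genes was 0.649, beside 0.555 over 11284 expressed genes, whose quartiles were 0.429 and 0.667. It was highest for Apoa4 (0.753) and Apoc3 (0.734) and lowest for Apob (0.403) and Apoc4 (0.513). Without IL-1052 and IL-2750 the median of the 10 genes was 0.734.

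A second comparison set each of the 21 lines against the mean of the other lines. Of the 210 pairs of a member gene and a line, 54 passed an adjusted p of 0.05 (edgeR), 30 higher and 24 lower, or 25.7%, where 18.2% of all gene-line pairs passed (11.0% higher and 7.15% lower). When the mice of the called line were left out singly, 21 of the 54 calls held for every mouse of that line.  In bulk tissue, a lower level per cell and fewer expressing cells cannot be told apart.

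Apoa4 varied most, and was highest in 5 lines. FPKM was 1700 and 1342 in the IL-219 mice, 1212 and 1521 in IL-4457, 1425 and 1175 in IL-2680, 2162, 986 and 466 in IL-2156, and 774 and 1095 in IL-2011. Among the mice of all other lines, the highest value was 755 FPKM, in 1 of the 2 IL-72 mice, whose line mate had 163 FPKM. That mouse lay above the lowest IL-2156 mouse and below all other mice of the 5 lines, and the IL-2156 mice differed among themselves the most. At the low end, the IL-611 mice had 46.6, 39.2 and 37.5 FPKM. All 3 IL-611 mice lay below every mouse of the other lines except 1 of the mice labelled IL-2750, which had 29.3 FPKM.

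Against the mean of the other lines, Apoa4 was higher in IL-4457 by a log2 difference of 2.85 ± 0.36 (SE), in IL-219 by 2.82, in IL-2680 by 2.58, in IL-2156 by 2.55 and in IL-2011 by 2.14, with adjusted p (edgeR) from 4.43e-07 to 0.000147. These 5 calls and the lower level in IL-611 (log2 difference of -2.51, adjusted p of 0.000598, edgeR) held without each mouse of the line, with the value for IL-2156 ranging from 1.77 to 2.93. Lower levels in IL-1513 (-2.12), IL-3348 (-1.84) and IL-670 (-1.49) were lost without any 1 of the line's mice, although the log2 differences stayed at -1.98 to -2.25, -1.78 to -1.89 and -1.37 to -1.55. Apoa4 was called in 9 of 21 lines, a count that 7.02% of all genes reached.

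**Figure D2:**
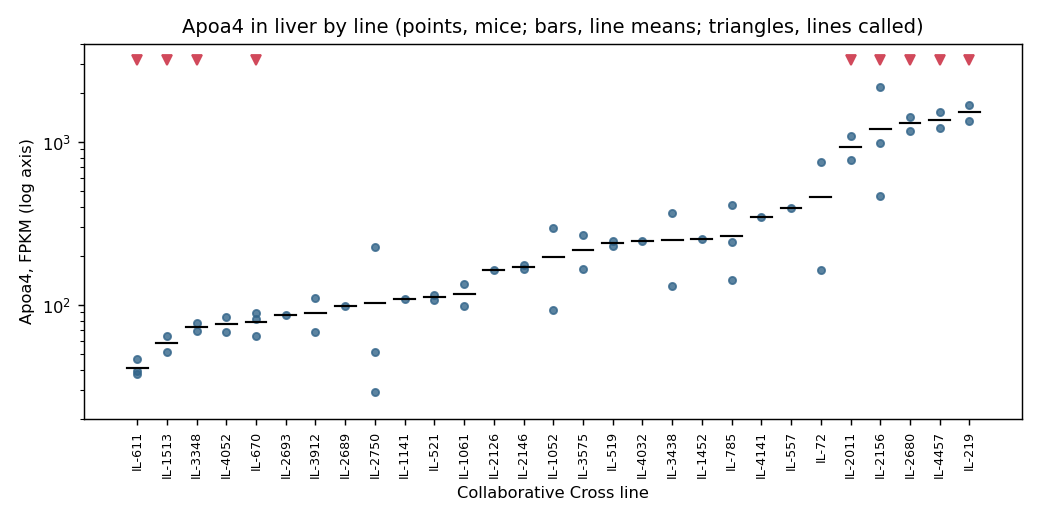
Apoa4 FPKM on a log axis for the 29 lines in order of their means; points are mice, bars are line means and triangles mark lines called against the mean of the other lines. The lines IL-2011, IL-2156, IL-2680, IL-4457 and IL-219 have means of 935 to 1521 FPKM, while the next line, IL-72, has 459 FPKM with mice at 163 and 755.

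Markers of other cells were read beside Apoa4. The summed FPKM of the 8 Kupffer cell and macrophage markers found was 61.9 to 174 (median 123) in the 5 lines where Apoa4 was higher, 31.8 to 79.2 (median 61.1) in the 4 lines where it was lower and 19.8 to 221 (median 55.8) in the other 20 lines. Over 29 line means, this list had a Pearson r of 0.48 with Apoa4. No single marker passed the fit over all genes with Apoa4, and the highest was Clec4f, a Kupffer cell lectin (r = 0.57, adjusted p of 0.197, limma). Their part in the Apoa4 result was not tested. The summed enterocyte markers, nearly all Fabp2, had r = -0.10 and the adipocyte markers r = 0.39 with Apoa4. For other members, the larger values over 29 line means were as follows. The hepatocyte list had r = 0.59 with Apoa5, 0.53 with Apoa1 and 0.52 with Apoc1. The enterocyte list, again nearly all Fabp2, had 0.51 with Apoa5 and -0.44 with Apoc2, and the cholangiocyte list 0.50 with Apoc3. A list of genes induced by fasting had 0.49 with Apoa2 and -0.46 with Apoc2. Lists for pancreatic acinar cells, erythroid cells and feeding had smaller values, the largest that of feeding with Apoa5 (0.40). The part of these cells and states in the results was not tested.

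The other genes of the Apoa1 cluster differed less. Apoa1 was highest in IL-2146, at 11775 ± 729 FPKM (SD, n = 2), and lowest in IL-2156, at 4916 ± 1233 FPKM (SD, n = 3). The log2 differences of these lines from the mean of the others were 0.74 and -0.64. Both calls held without each mouse of the line, with adjusted p (edgeR) of 0.000883 and 0.00239. Apoc3 was highest in IL-4457, at 3798 ± 23.4 FPKM (SD, n = 2), and lowest in IL-1061, at 1843 ± 65.2 FPKM (SD, n = 2). The higher Apoc3 in IL-4457 (log2 difference of 0.71, adjusted p of 1.43e-05, edgeR) held without either mouse, and the lower level in IL-1061 (-0.40) did not.

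Apoa5 had its highest line mean in IL-4141, where the 1 mouse had 657 FPKM, and its lowest in IL-1513, at 230 ± 35.7 FPKM (SD, n = 2). It was lower in IL-1513 (log2 difference of -0.75, adjusted p of 0.000857, edgeR) and higher in IL-3912 (0.65, adjusted p of 0.00079, edgeR), and both calls held without each mouse of the line. Genes of the cluster could differ in opposite directions in a line: in IL-2156, Apoa4 was higher and Apoa1 lower.

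In the Apoe cluster, Apoe, Apoc1 and Apoc4 were all highest in IL-2146. Apoc1 and Apoc4 were lowest in IL-2156, and Apoe was lowest in IL-2011. Apoe was 17069 and 14994 FPKM in the IL-2146 mice, against 5952 and 9022 in IL-2011 and 8984, 9810 and 7754 in IL-2156. Apoc1 was 9595 and 8432 FPKM in IL-2146 and 3954, 4355 and 3549 in IL-2156. Apoc4, a minor protein of very low density lipoproteins, was 1372 and 1184 FPKM in IL-2146 and 682, 814 and 652 in IL-2156. For each of these 3 genes, both IL-2146 mice lay above all 3 IL-2156 mice. These lines were picked because their means lay at or near the extremes, so the separation was nearly fixed in advance and is no test.

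The log2 differences in IL-2146 were 0.62 for Apoe, 0.78 for Apoc1 and 0.52 for Apoc4, with adjusted p (edgeR) of 0.000211, 2.18e-06 and 0.00019. In IL-2156 they were -0.45 for Apoe, -0.58 for Apoc1 and -0.46 for Apoc4, with adjusted p (edgeR) of 0.00269, 7.38e-05 and 0.000244. Apoe was also lower in IL-2011 (-0.70, adjusted p of 0.000256, edgeR). All 7 of these calls held without each mouse of the line. IL-2146 was a line with many differences, since 42.3% of all genes tested were called in it, beside 24.5% in IL-2156 and 19.8% in IL-2011. IL-2156 was also the line with the highest acute-phase serum amyloids, Saa1 at 22456 ± 13821 FPKM and Saa2 at 24405 ± 16335 FPKM (SD, n = 3), near-identical genes whose reads may be divided uncertainly. Means of the lowest lines were 9.96 and 9.76 FPKM. Their part in the lower apolipoprotein levels of IL-2156 was not tested.

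Apoa2 on chromosome 1 had the same lowest line, IL-2156, with 9367, 8377 and 6955 FPKM (log2 difference of -0.57, adjusted p of 0.000627, edgeR). Its highest line mean was in IL-2126, where the 1 mouse had 16873 FPKM. Higher Apoa2 in IL-2146 (0.46) was lost without 1 mouse. In the libraries labelled IL-2750, Apoc1 was higher (0.34, adjusted p of 0.0069, edgeR) and Apoc3 lower (-0.34), and in those labelled IL-1052 Apoc4 was higher (0.28). The Apoc3 call was lost without 1 mouse and the Apoc4 call without either mouse, beside the doubt on these labels given above.

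Apoc2 followed another order of lines. It was called in 11 of 21 lines, 7 higher and 4 lower, and 3.11% of all genes were called in at least as many. The highest line was IL-3575, with 695 and 563 FPKM, and the lowest was IL-611, with 268, 234 and 242 FPKM. Above IL-670, at 436 ± 9.98 FPKM (SD, n = 3), 8 lines had means of 501 to 629 FPKM. Of the single calls, the lower level in IL-611 (log2 difference of -0.60, adjusted p of 0.00526, edgeR) held without each mouse, and the other 10 did not. For neighbouring lines in the order of means, the ranges of the mice overlapped in 18 of 20 neighbour pairs for Apoc2 and in 16 of 20 for Apoa4.

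Apob was called in 1 line, IL-2146, where it was lower by counts (log2 difference of -0.76, adjusted p of 0.00274, edgeR), and the call was lost without 1 mouse (-0.29). The level of Apob depended on the scale. Its effective length as used for FPKM ran from 3957 to 9460 bases among mice, and the isoforms it averages over differ widely in length. A 3′ isoform of 2174 bases with 5 exons, Apob-005 (chr12:8019165-8023641), was given 37.2% to 84.4% of the transcripts. The full isoform Apob-001 of 13934 bases was given 15.6% to 62.7%. The IL-2146 mice lay toward 1 end, with Apob-005 at 81.0% and 77.1% and Apob-001 at 18.9% and 22.9%. The part of these shares in the lower Apob counts of IL-2146 was not tested. Over the 55 mice, Apob on the log2(FPKM + 1) scale had a Pearson r of 0.51 with its log2 TMM-scaled counts by depth (CPM), beside 0.86 to 1.00 for the other 9 genes. Over 29 line means, the Apob-005 share rose with Apob FPKM (r = 0.54, permutation p = 0.00276; rho = 0.65, permutation p = 0.00037) and had r = -0.43 and rho = -0.18 with CPM. The line tests in edgeR use counts, while the line means, the intraclass correlation and the co-variation of Apob are on the FPKM scale and carry these isoform shares.

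The third comparison asked whether genes of a cluster varied together across lines, using the 12 pairs within the clusters and line means of log2(FPKM + 1) over 29 lines. A pair was called where 1 gene passed an adjusted p of 0.05 in a limma fit of all 11283 other expressed genes on the other. In the Apoe cluster, 2 of 6 pairs were called, Apoc1 with Apoc4 and Apoe with Apoc4, and in the Apoa1 cluster 0 of 6. The share of all genes called was 1.72% for Apoe, 5.03% for Apoc1, 3.70% for Apoc4, 1.29% for Apoc3 and 0.204% for Apoa5, while 0% were called for Apoa1, Apoa4 and Apoc2.

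Apoc1 and Apoc4 had a Pearson r of 0.78 (permutation p = 1e-05, the smallest that 100000 permutations can give) and a Spearman rho of 0.60 (permutation p = 0.00059). The adjusted p (limma) was 0.00495 with Apoc1 and 0.00413 with Apoc4 as the regressor. Without IL-2146 and IL-2126, the lines farthest from the median of Apoc1, r was 0.63. Of all 11283 genes, 1 had a higher r with Apoc1 than Apoc4 had, and 2 had a higher r with Apoc4 than Apoc1 had. Within lines, the deviations of 47 mice from their line mean had r = 0.71 for this pair.

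Apoe and Apoc4 had r = 0.72 (permutation p = 1e-05) and rho = 0.65 (permutation p = 0.0002), with an adjusted p (limma) of 0.0157 at the lower of the fits. Without IL-2011 and IL-2156, r was 0.60, and the deviations within lines had r = 0.81. Apoe and Apoc1, adjacent genes, had r = 0.56 (permutation p = 0.00195) and rho = 0.44 (permutation p = 0.0185), which did not pass over all genes (adjusted p of 0.0812, limma) but did on log2(TPM + 1) and on CPM (adjusted p of 0.0214 and 0.00827, limma). The call of Apoe with Apoc4 was lost in the 21 lines with at least 2 mice, at r = 0.72 and an adjusted p of 0.138 (limma), and without the line IL-2126, at an adjusted p of 0.0595 (limma). With the runs of sample numbers as terms, Apoe with Apoc4 was called (r = 0.75, adjusted p of 0.0440, limma) and Apoc1 with Apoc4 was not (r = 0.71, adjusted p of 0.0565, limma).

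For Apoc2, whose annotated span contains Apoc4, no relation within the cluster was called. Its r was 0.12 with Apoe, -0.01 with Apoc1 and -0.05 with Apoc4, with permutation p of 0.534, 0.966 and 0.795. Its most similar genes over 29 line means lay on the same chromosome: Calm3 (r = 0.73), Ercc1 (0.72), which starts 0.327 Mb from Apoc2, and Xrcc1 (0.71), at 2.76, 0.327 and 5.08 Mb in that order. None of these passed over all genes (adjusted p of 0.0836, limma).

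**Figure D3:**
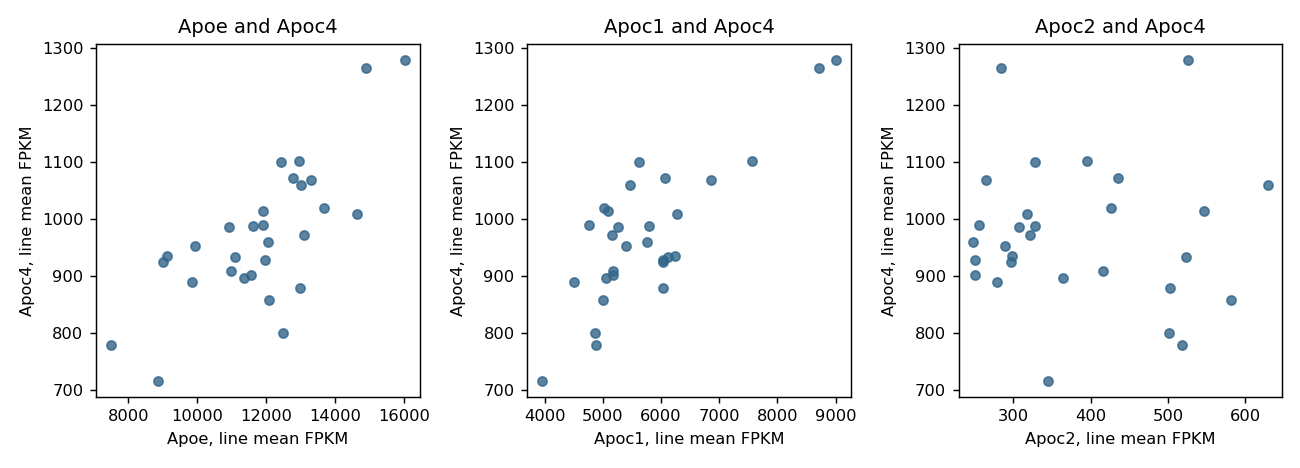
Line mean FPKM of Apoc4 against that of Apoe, Apoc1 and Apoc2; each point is 1 of 29 lines. On the log2(FPKM + 1) scale r is 0.72 with Apoe, 0.78 with Apoc1 and -0.05 with Apoc2.

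In the Apoa1 cluster, the largest r was that of Apoc3 and Apoa4 (0.51, permutation p = 0.00382), with rho = 0.32 (permutation p = 0.0906) and an adjusted p of 0.0894 (limma). This pair passed without the line IL-4052 (r = 0.62, adjusted p of 0.0255, limma). Apoc3 and Apoa5 had r = 0.39, Apoa1 and Apoa5 0.37, Apoa1 and Apoc3 0.18, Apoa4 and Apoa5 0.17, and Apoa1 and Apoa4 -0.35, with permutation p of 0.0376, 0.0486, 0.362, 0.373 and 0.063. Within lines, the deviations of Apoa1 and Apoc3 had r = 0.52 and those of Apoa4 and Apoa5 r = 0.46.

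Pairs were also called between chromosomes. Apoa2 had r = 0.73 with Apoc4 (adjusted p of 0.00617, limma) and r = 0.67 with Apoc1 (adjusted p of 0.0123, limma), with 9.26% of all genes called for Apoa2. Without IL-2156 and IL-2126, r was 0.62 and 0.54. Within lines, the deviations of these pairs had r = 0.58 and 0.54. Over all pairs on different chromosomes, r within lines ran from -0.15 (Apob and Apoe) to 0.72 (Apoa1 and Apoa2). A high r within lines was therefore not particular to neighbours. Of the 45 pairs among the 10 genes, 4 were called. Over line means, the Apob-005 share described above had r = 0.60 with Apoc1, 0.48 with Apoa2 and 0.45 with Apoc4. With the other members apart from Apob it had r of 0.01 to 0.36, 0.13 for Apoe. The part of this share in the called pairs was not tested. In all, 1045 genes were called with Apoa2, and those most like it were Timm9, a mitochondrial import chaperone (r = 0.83), Ddrgk1 (0.81) and Rbbp4 (0.80).

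**Figure D4:**
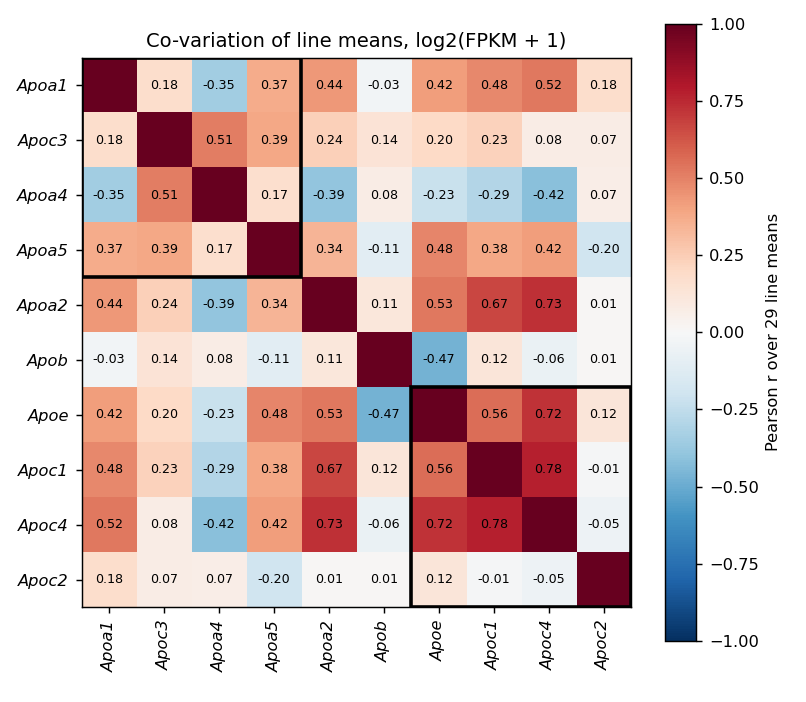
Pearson r between the line means of log2(FPKM + 1) of the 10 genes over 29 lines; the boxes outline the Apoa1 cluster and the Apoe cluster. Within the Apoe cluster r reaches 0.78, with Apoc2 near 0, and within the Apoa1 cluster it runs from -0.35 to 0.51.

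The genes most like the other members were as follows. For Apoa5 it was Igf1, the growth hormone target (r = 0.82, adjusted p of 0.00121, limma), then Bnip3 (0.73) and Efhd2 (0.72). For Apoc3 it was Ube2g2 (0.80), Jdp2 (0.77) and Shb (0.76). For Apoe it was Aldh7a1 (0.76), Atp5d, a subunit of ATP synthase (0.76), and Acaa1b, a peroxisomal thiolase (0.75). For Apoc4 it was Ndufs3, a subunit of respiratory complex I (0.79), Gys2, liver glycogen synthase (0.78), and Apoc1 (0.78), and for Apoc1 it was Bcas2 (0.80), Apoc4 (0.78) and Ndufs6, another complex I subunit (0.77). For Apob it was Cd47 (0.79), Rab2a (0.78) and Son (0.78), on the FPKM scale on which Apob is affected by its isoform shares. For Apoa1, Ahsg (0.66), Ttr (0.63) and Hsd3b5 (0.62) were nearest and for Apoa4, Ms4a6d (0.73), Sla (0.72) and AI607873 (0.68), none of which passed over all genes.

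Isoform ratios were compared next, as the percentage of a gene's transcripts given to an isoform. The 10 genes had 35 annotated isoforms, of which 15 had a mean share of at least 5%. Apoa4 and Apoc4 had 1 isoform each, and in Apoa1, Apoc3 and Apoc1 a single isoform took at least 95.8% in every mouse. The remaining 5 genes had an isoform with at least 12 rounded levels. For 4 of these 5, the ratio differed among lines (limma on normal scores, adjusted p under 0.05), where 32.9% of 6650 isoform traits did. Within runs of sample numbers, 2 of the 5 were called, Apoa2-001 and Apoc2-201 (adjusted p of 0.0243 and 0.0213, limma), and 5.44% of all traits.

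The share of Apoa2-001, which uses the first of the tandem acceptors shown above, was 46.5% to 58.6% among mice, and that of Apoa2-002 was 40.3% to 49.95%. These isoforms also differ at their annotated ends. The part of the acceptors and of these ends in the shares was not tested. The line means of Apoa2-001 fell into separate ranges: 19 lines lay between 46.9% and 52.1%, and 10 lines lay between 55.1% and 58.5%. No mouse had a share between 52.5% and 55.1%. The gap of 3.06 percentage points between IL-2011 and IL-2693 was the widest between neighbouring lines, the next being 1.75. The pooled SD within lines was 0.893 percentage points, beside an SD of 3.93 between line means. Within the lower range, the mates of IL-4052 (52.5% and 48.2%) and of IL-2680 (48.1% and 51.7%) lay farther apart than the gap is wide. The intraclass correlation of the percentages was 0.949. The difference among lines had an adjusted p of 0.000853 (limma). The share had r = 0.25 with the level of Apoa2 over 29 lines (permutation p = 0.188; rho = 0.26, permutation p = 0.166).

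**Figure D5:**
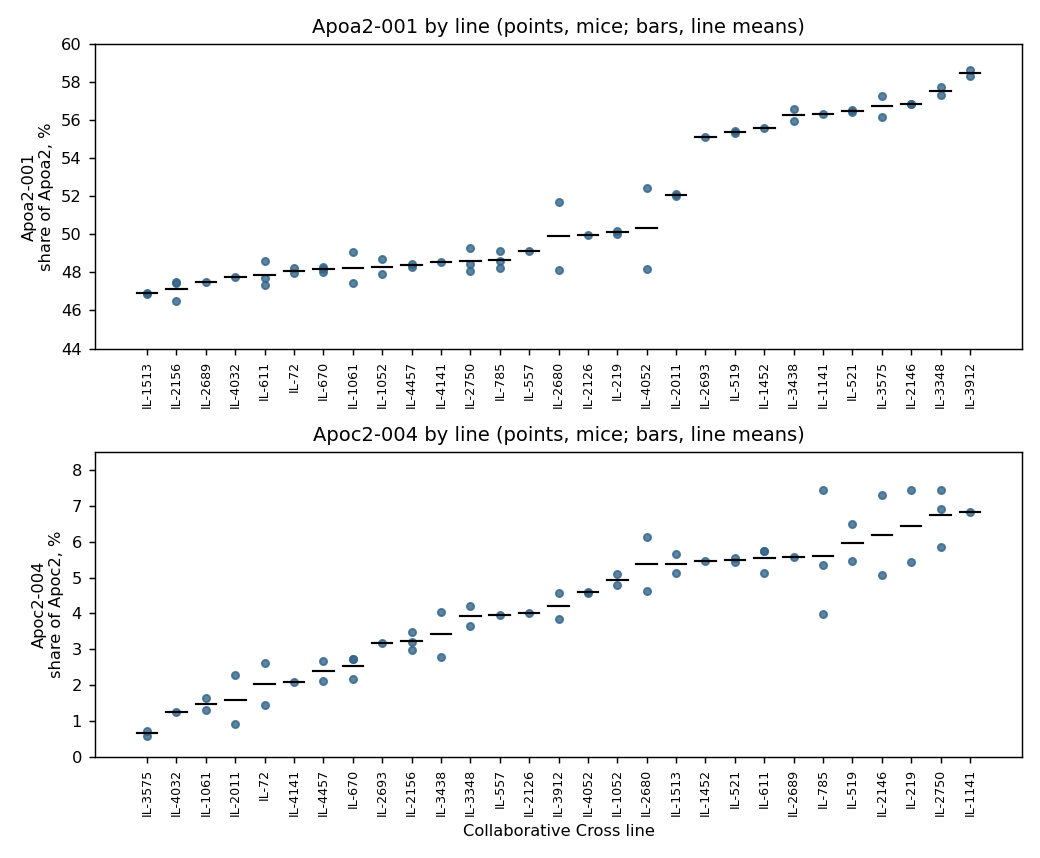
Share of Apoa2-001 in Apoa2 and of Apoc2-004 in Apoc2, in percent, by line in order of the line means; points are mice and bars are line means, and the upper axis does not start at 0. Apoa2-001 leaves 52.5% to 55.1% empty, and Apoc2-004 runs from 0.59% to 7.45% among mice.

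In Apoc2, the isoform Apoc2-201, which starts within Apoc2, took 81.8% to 97.0%, and differed among lines (adjusted p of 0.000817, limma). It was lowest in IL-1513 (81.8% and 82.0%) and highest in IL-3575 (96.8% and 97.0%). Apoc2-001, also named for values already seen, took 11.6% and 9.89% in the IL-1513 mice, beside a median of 3.37% over all mice. It differed among lines when every isoform of at least 12 levels was tested (adjusted p of 0.00661, limma). Apoc2-004, the isoform joined to the first exon of Apoc4 and described here because of values already seen, took 0.59% to 7.45%, and 5.12% and 5.65% in IL-1513. Across 29 lines, its share was lower where Apoc2 was higher (r = -0.75, permutation p = 1e-05, the smallest possible; rho = -0.71, permutation p = 1e-05), and r was -0.68 without the 2 lines of most extreme share. Share and level come from the same reads, so that a constant amount of Apoc2-004 would also give a negative r. The level of Apoc2-004, its share of the Apoc2 FPKM, ran from 3.32 to 32.1 FPKM among mice and had r = -0.39 with the level of Apoc2 over 29 line means. Such relations were computed for 9 isoforms.

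In Apoe, the annotated isoforms Apoe-002, Apoe-010 and Apoe-001 took 38.2% to 66.9%, 20.2% to 53.7% and 1.17% to 18.45%. Apoe-010 differed among lines (adjusted p of 0.00152, limma), with its lowest line mean in IL-219 (26.6% and 22.3%) and its highest in IL-557 (1 mouse, 53.7%). The shares of Apoe moved with the runs of sample numbers. In the run of 11 mice with the lowest numbers, Apoe-001 was 8.87% to 14.1% and Apoe-010 20.2% to 34.8%, and in the next run, of 16 mice, they were 1.77% to 5.71% and 33.6% to 44.4%. Within runs, Apoe-010 was not called (adjusted p of 0.80, limma), and the line difference cannot be told apart from the run. By mouse, Apoe-001 was 9.12%, 18.45% and 15.9% in the mice labelled IL-2750 and 1.17%, 1.72% and 1.51% in IL-611. Apoe-002 (5 exons, 728 bases, chr7:20281616-20284401) and Apoe-010 (4 exons, 1104 bases, chr7:20281621-20284357) differ in the number of exons and at both ends. Their exons were not compared base by base, so the shares cannot be tied to 1 intron. Apoe-002 has an intron of 386 bases. The ends of this intron, read on the minus strand at chr7:20282063-20282082 and chr7:20281677-20281696, are shown with the intron in capitals.
Apoe-002 donor: gtggagcaagGTCGCCAGCG
Apoe-002 acceptor: ATCCAGCCAGgtggccctgt

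Apoa5-201 took 88.2% to 97.2% of Apoa5, and its adjusted p was 0.04995 (limma), just under the threshold. This call was lost without 36 of the 47 mice left out singly, at adjusted p (limma) of up to 0.136, in 3 of 4 other settings, at up to 0.483 on unconverted percentages, and within runs of sample numbers, at 0.36. The isoform Apob-005 did not pass (adjusted p of 0.0532, limma), but lay close to the threshold. It passed without some single mice. In lines with 3 mice, these were 1 each of IL-785, IL-2156, IL-611 and IL-670 (adjusted p of 0.0350 to 0.0495, limma). In lines with 2 mice, either IL-3912 mouse was among them, with Apob-005 at 45.9% and 70.8% in these mates. With every isoform of at least 12 levels tested, Apob-001 passed and Apob-005 did not (adjusted p of 0.0418 and 0.0544, limma).

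Body weight and age, the other values given for each mouse, were fitted together to line means in limma. None of the 10 genes was called for body weight or for age, and 0% of 11284 genes were. At an unadjusted p under 0.05 there were 833 genes for body weight and 621 for age, among them Apoc3 and Apoa5 for age. Per gram, the slope of Apoa4 was 0.04 ± 0.06 (SE) and that of Apoc4 -0.01 ± 0.01 (SE) on the log2 scale.

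Other genes of lipoprotein metabolism were read from a list of 77, of which 76 passed the filter on low counts. Among lines, 71 of the 76 differed (edgeR adjusted p under 0.05), where 88.5% of all genes did, and within runs of sample numbers 53, where 66.7% did. By group these were 12 of 13 other apolipoproteins and lipoprotein proteins, 13 of 16 genes of particle assembly, 8 of 8 of high density lipoprotein remodelling, 12 of 12 receptors and clearance genes, 7 of 7 genes of lipoprotein lipase control and 19 of 20 transcription factors. Line means of Saa4, a serum amyloid of high density lipoproteins, ran from 41.8 FPKM in IL-219 to 498 in IL-2156, those of Apol9a from 0.713 in IL-785 to 81.7 in IL-2680, and those of Apon from 133 in IL-1452 to 402 in IL-2156.

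Of the assembly genes, Dgat2, which makes triglyceride, ran from 106 FPKM in IL-557 to 275 in IL-2146, and Apobec1, the enzyme that edits Apob mRNA, from 4.11 in IL-2689 to 50.1 in IL-4457. Cidec, a lipid droplet protein, ran from 0.163 FPKM in IL-611 to 11.7 in IL-4457, lines that were also low and high for Apoa4. Over all 29 line means, however, no gene passed the fit with Apoa4, Cidec included. Scarb1, the high density lipoprotein receptor, was highest in IL-2156 (94.0 FPKM) and Lipc, hepatic lipase, was lowest there (33.3 FPKM). Lipg, endothelial lipase, ran from 0.365 FPKM in IL-4457 to 10.2 in IL-219. Angptl4, an inhibitor of lipoprotein lipase, ran from 11.6 FPKM in IL-72 to 119 in IL-4141, Gpihbp1, its anchor on capillaries, from 3.34 to 14.04 FPKM and Lmf1, a lipase maturation factor, from 10.9 to 23.2 FPKM.

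Among receptors, Vldlr ran from 0.03 to 2.13 FPKM and Stab1, a scavenger receptor, from 3.69 to 10.1 FPKM. Of the transcription factors, Nr0b2, a corepressor of bile acid signalling, ran from 1.33 FPKM in IL-4457 to 43.5 in IL-2680, Foxo1 from 4.10 to 14.9 FPKM and Mlxipl, a carbohydrate-responsive factor, from 22.3 to 63.3 FPKM. The genes not called were Apool, Tm6sf2, Cideb, Surf4 and Nr2f1, with adjusted p (edgeR) of 0.476, 0.0653, 0.103, 0.0792 and 0.152. Apool was called when either IL-2146 mouse was left out, with adjusted p (edgeR) of 0.000184 and 1.04e-05. Tm6sf2, Cideb and Surf4 were called without 7, 4 and 3 of the 47 mice left out singly, and by DESeq2, with adjusted p of 0.0132, 0.0161 and 0.0148. Tm6sf2 was also called with no filter (0.0408, edgeR) and within runs (0.0355, edgeR), and Surf4 with upper quartile scaling (0.0388, edgeR).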

How the data were processed

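Liver RNA of 55 mice was sequenced from TruSeq Stranded mRNA libraries. The authors mapped reads to mm9 with an Ensembl annotation and quantified genes and isoforms with RSEM version 1.2.18. Reads of all lines were mapped to that 1 reference genome, so a line's sequence differences could alter its estimates. The deposited tables hold expected counts, TPM, FPKM and, for isoforms, the percent of the gene's transcripts. Between 9.49% and 12.9% of a mouse's expected counts were not whole, and all were rounded. Symbols were matched for 37205 of 37620 identifiers.

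Differences among the 21 lines with at least 2 mice were tested on counts with edgeR 4.0.16 (TMM, filterByExpr, quasi-likelihood F-test), and each line against the mean of the others, with Benjamini-Hochberg adjustment over all genes or gene-line pairs. Line means of log2(FPKM + 1), for genes reaching 2 FPKM, and isoform percentages, as van der Waerden scores of values rounded to 200 bins of at least 0.5, were tested with limma 3.58.1 (R 4.3.3). An isoform trait was the isoform with the most rounded levels, at least 12. DESeq2 1.42.0, other normalizations, filters, pseudocounts and each mouse or line left out were alternatives. Permutation tests were two-sided. Line mates were separate mice. Labels IL-1052 and IL-2750 are doubtful. Scripts were checked on simulated data.

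The genes, lists and the rule for named genes were chosen with earlier results of these data known. Named were all members, for each pathway group the 3 genes of lowest p and up to 3 not called, for each member the 3 genes of highest r, its extreme and called lines, isoforms of at least 5% and those tested. Apoc2-004 was added after its values were seen. A gene that this rule names is not reported here. The hepatocyte, enterocyte, cholangiocyte, pancreatic acinar, Kupffer cell, adipocyte, erythroid, fasting and feeding lists were used as descriptions.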

Additional observations from a re-analysis of the deposited data

How the results depend on the processing

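Of the 10 members, 9 or 10 differed among lines under all 12 other settings and when each mouse was left out singly, and Apob was the gene that dropped out. The count of member-line pairs called was 54, 42 with no filter on low counts, 48 with upper quartile scaling, and 46 to 59 when mice were left out singly. It was 52 without IL-1052 and IL-2750, where the pairs of these lines were not tested. Leaving out a mouse of a line with 2 mice leaves 1, which is then assumed to vary like the mice of other lines. The median intraclass correlation of 0.649 was 0.722 on TMM CPM, 0.734 without IL-1052 and IL-2750, and 0.634 to 0.678 with each mouse left out. The 2 pairs called within the clusters were 4 on log2(TPM + 1), 1 in lines with at least 2 mice, and 1 to 3 with each line left out, 1 without IL-2126. Within runs of sample numbers, an alternative chosen after seeing the data, 1 of these pairs and 2 isoform ratios were called. Isoform ratios otherwise differed in 4 members, in 3 to 5 members with each mouse left out. The calls of 0 members for body weight stayed at 0 in every setting, and the other lipoprotein genes called, 71, ran from 68 to 74, and were 53 within runs. No direction of a called result was reversed. The causes of these changes were not tested. No paired analysis was possible because the labels number each mouse separately and no number is shared between lines.

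Expected counts behind the members were at least 1435 in every mouse, so counting error was small beside the spread between line mates. The number of mice for each line, 1 to 3, limits each line's value. All 5 members with an isoform trait depend on how RSEM divides reads among overlapping isoforms.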
